A study of Mus musculus with 5 samples.

Results

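The 60 genes described here encode the collagens and other proteins of connective tissue matrix, with the enzymes that link, cut or protect them. They were chosen by name: every gene whose single platform symbol is a collagen chain, a fibrillin, fibulin, laminin, matrix metalloproteinase, TIMP, ADAM, ADAMTS or lysyl oxidase, together with Postn, Fstl1, Sparc, Lum, Dcn, Bgn and Fn1. They had 89 probes. Of the 60 genes, 57 had a value on all 5 arrays, out of 8452 such genes among 9050 named on the platform; Adam18, Col22a1 and Lama4 each lacked a value on 1 array. The rule uses names and no measured value, although it was written with earlier results of these data known.

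The study followed macrophages grown from bone marrow of C3H/HeJ mice in culture with human CSF-1, on which these cells depend. All groups share the strain's Tlr4 mutation, known to blunt the response to bacterial lipopolysaccharide (LPS). One group was not exposed (0 h), and the others received 10 µg per ml of LPS from Salmonella minnesota for 0.5, 2, 7 or 21 h. Every sample was hybridised with total RNA of whole C57BL6/J embryos of 17.5 days on a two-colour cDNA array, 1 array a time. There were no replicates, so nothing was tested, and every difference is one between single arrays.

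Collagens are secreted as helices of long chains wound round each other, and lysyl oxidases cross-link the fibrils that these form. Fibroblasts, osteoblasts and chondrocytes make most collagens, and in a late embryo these cells fill the skin, skeleton and loose connective tissue. Macrophages of the bone marrow lineage are known less as makers of fibrillar matrix than as cells that take it up and digest it. They do so through cathepsins and metalloproteinases, and the TIMPs inhibit the metalloproteinases.

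Each value below is a log ratio of macrophage over embryo, centred on the median gene of its array. The base of the deposited logarithm and the direction of the ratio are not stated in the sources used here. Base 10 and macrophage over embryo are the readings taken, from the size of the globin ratios and from the macrophage markers, and the direction is likely only. On that reading a difference of 2-fold is 0.301, the size rule used throughout. Among 7 measured macrophage markers 5 were above embryo by 2-fold at 0 h, with Lyz2 (lysozyme of myeloid cells) at 1.13 and Lcp1 (an actin-bundling protein of leukocytes) at 1.20, while Cd68 (-0.16) and Tyrobp (-0.05) were below 0. The 4 connective tissue markers Col1a1, Col1a2, Postn and Fstl1 lay between -1.84 and -1.02 on the same array. Of all 9 measured connective tissue markers 6 were lower by 2-fold there, while Col3a1 (-0.0016), Pdgfra (0.01) and Pdgfrb (0.01) were not. The embryo is a mixture, so fewer cells of a type and less RNA per cell cannot be told apart in these ratios.

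The 0.5 h array stood apart from the others. Its Pearson correlation with the 0 h array over all probes, which share the embryo reference, was 0.48, beside 0.85, 0.84 and 0.75 for the 2, 7 and 21 h arrays. The spread of ratios over probes also differed, with SDs of 0.33, 0.58, 0.42, 0.35 and 0.32 on the 0, 0.5, 2, 7 and 21 h arrays. Between probes of 1 gene the pooled SD of the ratio was 0.24, 0.52, 0.31, 0.27 and 0.25 on these arrays in turn. For the difference from the 0 h array it was 0.48, 0.16, 0.16 and 0.19 at 0.5, 2, 7 and 21 h. This spread between probes is the only error these arrays allow. No spot intensities were used here, so how far a spot lay above background is unknown, and a very low ratio may be a bound.

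The promoters of the 3 lowest members, and of Col3a1, the fibrillar collagen nearest to embryo by its median over the 0, 2, 7 and 21 h arrays, are shown to set the regulatory sequence beside the ratios. They are the 150 bases before the annotated start, 5′ to 3′, from RefSeq on GRCm38.p6, where 38 of the 60 genes matched. Capitals mark the letters TATAAA of a TATA box, the letters CCAAT, or the letters GGGCGG that Sp1 is known to bind, read on either strand. Postn has a further annotated start, and the one shown was picked because it holds TATAAA.
Fstl1, chr16:37776905-37777054, plus strand: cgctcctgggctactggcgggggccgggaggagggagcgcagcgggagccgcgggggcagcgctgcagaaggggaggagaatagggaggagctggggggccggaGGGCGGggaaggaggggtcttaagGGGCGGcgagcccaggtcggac
Col1a2, chr6:4505468-4505617, plus strand: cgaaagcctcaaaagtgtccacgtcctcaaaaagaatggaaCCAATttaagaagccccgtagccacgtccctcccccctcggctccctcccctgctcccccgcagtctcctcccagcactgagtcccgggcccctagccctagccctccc
Postn, chr3:54360957-54361106, plus strand: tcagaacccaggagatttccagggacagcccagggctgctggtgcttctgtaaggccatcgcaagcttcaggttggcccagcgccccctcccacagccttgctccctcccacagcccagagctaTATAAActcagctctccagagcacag
Col3a1, chr1:45311388-45311537, plus strand: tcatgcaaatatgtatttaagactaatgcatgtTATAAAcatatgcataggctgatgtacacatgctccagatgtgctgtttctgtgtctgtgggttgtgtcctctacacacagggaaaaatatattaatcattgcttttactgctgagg

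The window of Fstl1 held GGGCGG at 2 places, and that of Postn held TATAAA from 26 bases before the start. The window of Col1a2 held CCAAT from 109 bases before the start, and that of Col3a1 held TATAAA from 117 bases before it. Over the whole 250 bases before the start, GGGCGG was found in 28 of 45 promoters of matrix genes (62.2%), beside 32.7% of all 32851 promoters. TATAAA was found in 4 of the 45 (8.89%) beside 12.4%, and CCAAT in 13 (28.9%) beside 33.8%, each on both strands; several promoters can belong to 1 gene. A match describes letters only.

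Against embryo, about as many matrix genes were 2-fold lower as were not, on every array. At 0 h, 29 of 57 were lower by 2-fold or more, beside 8.90% of all genes, and 2 were higher, beside 8.99%. The corresponding counts of lower genes were 30 at 0.5 h (17.0% of all genes), 31 at 2 h (12.9%), 29 at 7 h (8.02%) and 26 at 21 h (9.12%). Those higher numbered 10 at 0.5 h (23.4% of all genes), 4 at 2 h (13.4%), 3 at 7 h (12.6%) and 4 at 21 h (9.67%). Members had medians of -0.30, -0.34, -0.47, -0.33 and -0.28 over the 57 on the 0, 0.5, 2, 7 and 21 h arrays, where the median of all genes is 0 by the centring.

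Genes of other embryonic tissues were low as well, so a low ratio is not particular to matrix genes. At 0 h, 6 of 6 measured markers of fetal liver (median -0.94), 6 of 7 of skeletal muscle (median -0.54) and 3 of 5 of erythroid cells (median -0.54) were lower by 2-fold.

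Many of the same genes were low on several arrays. The arrays share the embryo reference and the probes, so their agreement is not independent repetition. Lower by 2-fold on all of the 0, 2, 7 and 21 h arrays were 25 members (43.9%), beside 4.76% of all genes, and on all 5 arrays 22 members (38.6%), beside 3.80%. These counts use the mean over probes, and 41 of the 57 members rested on 1 probe. Of 20 members with 2 or more probes, 10 had probes 2-fold or more apart by their means over the 0, 2, 7 and 21 h arrays. Among the 25, Col9a3, Dcn and Timp3 each had a probe within 2-fold of embryo by that mean. Higher on all of those 4 arrays was 1 member, Adam9, beside 3.38% of all genes, and on all 5 arrays 0, beside 2.32%. Of the 50 genes lowest by median over the 4 arrays, 10 were matrix genes, which make up 57 of the 8452. Were the ratio in truth embryo over macrophage, every lower gene here would be higher and every rank from the lowest a rank from the highest. The set is not uniform: 24 members had a median within 0.2 of 0.

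**Figure D1:**
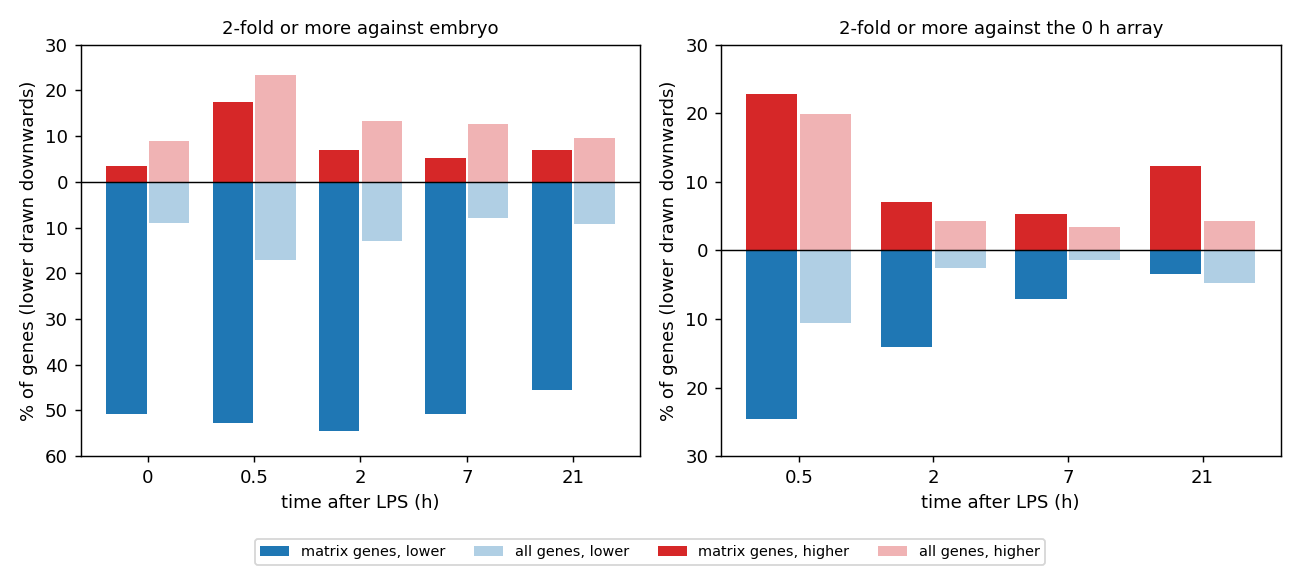
Share of genes 2-fold or more higher (drawn upwards) or lower (drawn downwards), in percent, against embryo (left) and against the 0 h array (right), by time after LPS in h; dark bars are the 57 matrix genes and pale bars all 8452 genes. Lower matrix genes against embryo make up between 45.6% (21 h) and 54.4% (2 h) of the set.

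Fibrillar collagens form the cable-like fibrils of skin, bone, tendon and cartilage. Of 9 measured chains, 7 were lower than embryo by 2-fold on all of the 0, 2, 7 and 21 h arrays, and their median at 0 h was -0.76. Col1a2, a chain of type I collagen, the main collagen of bone and skin, read -1.70, -2.33, -1.98, -1.67 and -1.02 on the 0, 0.5, 2, 7 and 21 h arrays on the 1 probe measured on all arrays. It was 50.1-fold below embryo at 0 h and the 7th lowest of all 8452 genes there. Its second probe, which lacked a value at 0.5 h, was as low on the remaining arrays: the means of both probes over the 0, 2, 7 and 21 h arrays were -1.59 and -1.47.

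Col1a1, the partner chain of type I collagen, read -1.02, -1.45, -1.79, -0.86 and -1.13 on the 0, 0.5, 2, 7 and 21 h arrays. The 2 h array was the lowest and the 7 h array the highest, and every array was far below embryo. The second Col1a1 probe, also without a value at 0.5 h, averaged -1.92 over the other 4 arrays, where the first averaged -1.20.

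Col5a1, a chain of type V collagen, which sets the width of type I fibrils, read -1.11, -1.78, -1.66, -1.18 and -1.20 on the 0, 0.5, 2, 7 and 21 h arrays. Its partner chain Col5a2 was nearer to embryo, between -0.47 (2 h) and -0.23 (21 h), with an SD over 2 probes of 0.25 at 0 h. On each array Col5a1 lay below Col5a2.

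Col2a1, the chain of cartilage collagen, read -1.22, -0.14, -1.41, -1.64 and -1.43 on the 0, 0.5, 2, 7 and 21 h arrays on 1 probe. The 0.5 h array alone put it near embryo. The other cartilage fibril chains were Col11a2, between -0.77 and -0.65 over the 0, 2, 7 and 21 h arrays, and Col11a1, between -0.70 and -0.55. Col27a1, a fibrillar collagen of developing cartilage, kept to a narrow band from -0.57 to -0.53 over these 4 arrays.

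Col3a1 and Col5a2 were the 2 fibrillar chains not low on all of these 4 arrays. Col3a1 encodes type III collagen, the collagen of vessel walls and loose tissue, and read -0.0016, -0.03, -0.24, -0.34 and -0.11 on the 0, 0.5, 2, 7 and 21 h arrays as the mean of 3 probes. Only the 7 h array passed the size rule. The 3 probes averaged between -0.32 and 0.07 over the 0, 2, 7 and 21 h arrays, so none was as low as either probe of Col1a1 or Col1a2.

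**Figure D2:**
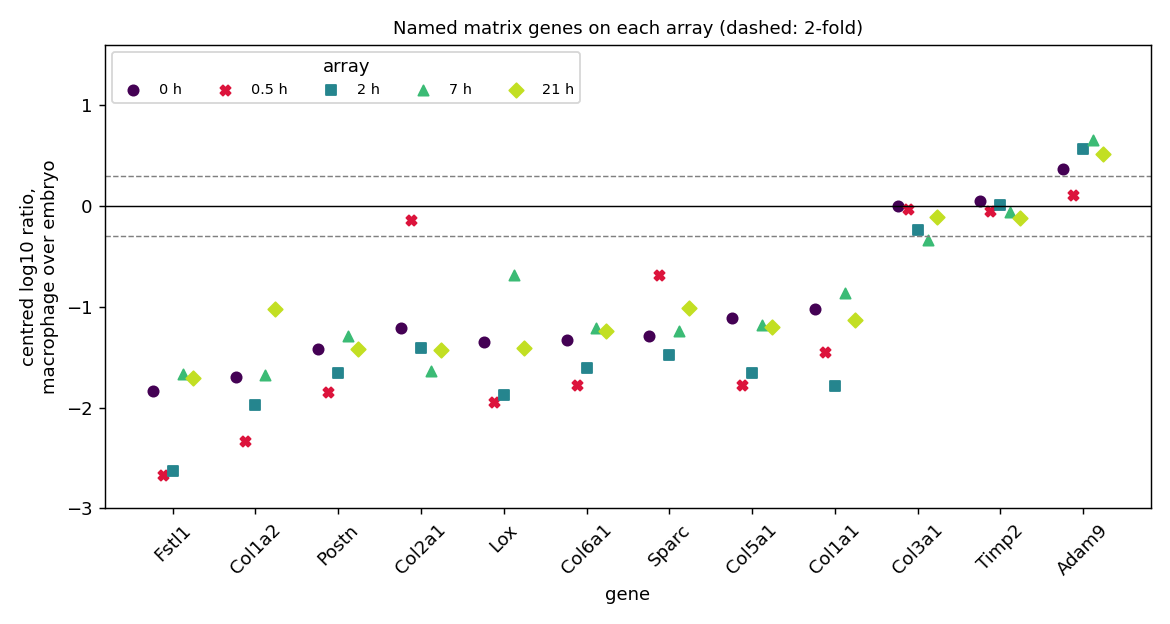
Centred log10 ratio of macrophage over embryo (vertical axis) for 12 matrix genes on each of the 5 arrays, 1 point per array; dashed lines mark 2-fold. Fstl1, Col1a2, Postn, Col6a1 and Col5a1 lie below -1 on all 5 arrays. Timp2 lies near 0, and Col3a1 lies within 2-fold of embryo except at 7 h (-0.34). The 0.5 h points of Col2a1 and Sparc lie above their other points.

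Among collagens of basement membranes and networks, 2 of 4 were low on all of the 0, 2, 7 and 21 h arrays. Col4a2, a chain of the sheet-forming type IV collagen, read -0.93, -1.16, -1.10, -0.80 and -0.47 on the 0, 0.5, 2, 7 and 21 h arrays. Col8a1, a short-chain collagen of vessels and cornea, lay between -0.76 and -0.50 over those 4 arrays. Col15a1 (-0.03 to 0.17) and Col18a1 (0.01 to 0.19), whose products carry heparan or chondroitin sulfate in basement membranes, lay near embryo as means of their probes. The 3 probes of Col18a1 averaged between -0.11 and 0.31 over those arrays, and 1 of them read 0.50 at 0 h and 0.48 at 7 h. At 21 h the 2 probes of Col15a1 read -0.01 and 0.35.

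The beaded-filament collagen VI was measured for 4 chains. Col6a1 read -1.33, -1.77, -1.61, -1.21 and -1.24 on the 0, 0.5, 2, 7 and 21 h arrays, with SDs over 2 probes of 0.03 to 0.34. Col6a3 read -1.11, -1.54, -1.23, -0.98 and -0.78 on the 0, 0.5, 2, 7 and 21 h arrays, and Col6a2 -0.92, -1.02, -1.22, -0.93 and -0.72 at the same times. These chains, which assemble with one another, were all at least 5.22-fold below embryo on each array. Col6a4 was not low, at 0.03 to 0.21 over the 0, 2, 7 and 21 h arrays.

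Col12a1, a collagen that decorates the surface of type I fibrils, read -0.98, -1.73, -1.55, -0.92 and -1.10 on the 0, 0.5, 2, 7 and 21 h arrays. Col14a1, a related fibril-associated collagen, lay between -0.13 and 0.10 over the 0, 2, 7 and 21 h arrays. Col16a1 was at -0.72 at 0 h and -0.07 at 21 h. Of the chains of cartilage collagen IX, Col9a2 was at -0.75 at 0 h on 1 probe. Col9a1 was at 0.11 there, the mean of 2 probes that read 0.45 and -0.23. The 3 probes of Col9a3 averaged between -1.24 and -0.09 over the 0, 2, 7 and 21 h arrays, so probes of 1 chain differed as well. Col26a1 lay between -0.35 and -0.19.

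Lysyl oxidases cross-link collagen and elastin. Lox, the founding member, read -1.35, -1.95, -1.88, -0.69 and -1.41 on the 0, 0.5, 2, 7 and 21 h arrays on 1 probe. It was the 21st lowest gene of all at 0 h, and its 7 h value stood well above the other 4. Loxl1, known for its part in elastic fibres, lay between -0.58 and -0.37 over the 0, 2, 7 and 21 h arrays. Loxl2 was near embryo except at 21 h (0.36).

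The matricellular and proteoglycan genes held the lowest member. Fstl1, which encodes a secreted glycoprotein of mesenchymal cells, read -1.84, -2.67, -2.63, -1.67 and -1.71 on the 0, 0.5, 2, 7 and 21 h arrays on 1 probe. It was 69.2-fold below embryo at 0 h, and from the bottom of 8452 genes its ranks were 4, 1, 2, 5 and 8 in the order of the times. The 0.5 h and 2 h arrays were lower than the other 3, and no array brought it near embryo.

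Postn, or periostin, a matrix protein of bone surface, tendon and heart valves, read -1.42, -1.84, -1.65, -1.29 and -1.42 on the 0, 0.5, 2, 7 and 21 h arrays. Its 2 probes were far apart, averaging -1.98 and -0.91 over the 0, 2, 7 and 21 h arrays, yet both were far below embryo. Sparc, a collagen-binding glycoprotein of bone, read -1.29, -0.69, -1.47, -1.24 and -1.01 at 0, 0.5, 2, 7 and 21 h as the mean of 3 probes. One of these probes read 0.33 at 0.5 h, while on the 4 other arrays the 3 probes averaged between -1.60 and -0.88.

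The small leucine-rich proteoglycans bind fibrils and regulate their spacing. Dcn (decorin) was even over time, between -0.80 and -0.76 over the 0, 2, 7 and 21 h arrays, although its 3 probes averaged from -1.47 to -0.28. Lum (lumican) read -0.52, -0.25, -0.74, -0.69 and -0.42 on the 0, 0.5, 2, 7 and 21 h arrays. Bgn (biglycan) was closer to embryo, at 0.04, 0.43, -0.30, -0.22 and -0.16 at the same times. Fn1, fibronectin, which macrophages are known to make as well, lay between -0.48 and -0.23 over the 0, 2, 7 and 21 h arrays on 1 probe.

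Fibulins bridge elastic fibres and basement membranes; none of 3 was past 2-fold on all of those 4 arrays. Fbln2 lay between -0.31 and -0.14, Fbln1 between -0.11 and 0.17 and Fbln7 between -0.24 and 0.38. No fibrillin was among the 60 genes. Laminins are the cross-shaped proteins of basement membranes. Lamb1 read -0.30, -0.38, -0.88, -0.64 and -0.51 on the 0, 0.5, 2, 7 and 21 h arrays, Lamb2 lay between -0.27 and 0.05 on the 0, 2, 7 and 21 h arrays, and Lama1 read 0.24, 1.58, 0.68, 1.05 and -0.13 on the 0, 0.5, 2, 7 and 21 h arrays.

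**Figure D3:**
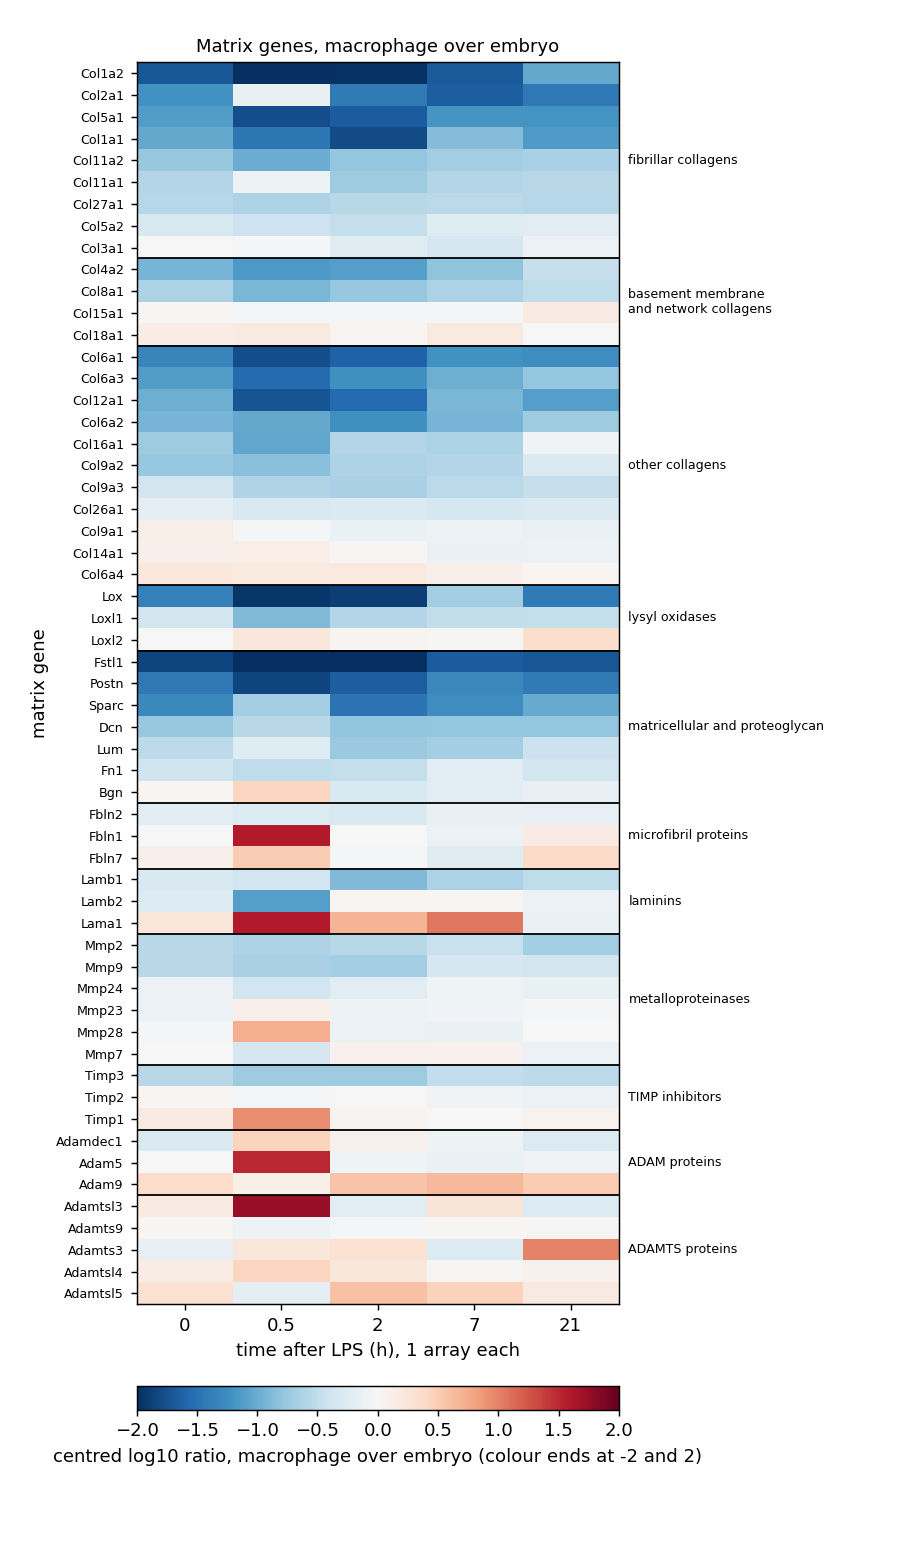
Centred log10 ratio of macrophage over embryo for the 57 matrix genes measured on all 5 arrays (rows, grouped by role) at each time after LPS (columns, 1 array each); blue is lower in macrophages, red is higher, and colours end at -2 and 2. Deep blue lies in the collagens, lysyl oxidases and matricellular genes, while metalloproteinases, TIMP inhibitors, ADAM and ADAMTS proteins are mostly pale.

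Most enzymes that cut matrix were within 2-fold of embryo at 0 h. Of 6 metalloproteinases the median at 0 h was -0.12, and 2 were low on all of the 0, 2, 7 and 21 h arrays. Mmp2, a gelatinase of stromal cells, lay between -0.68 and -0.45, and Mmp9, the gelatinase known from neutrophils, osteoclasts and activated macrophages, between -0.68 and -0.33. Mmp9 read -0.56, -0.64, -0.68, -0.33 and -0.36 on the 0, 0.5, 2, 7 and 21 h arrays, and at no time was it above embryo. On probes with a value on all 5 arrays, Mmp7, Mmp23, Mmp24 and Mmp28 stayed between -0.22 and 0.09 at 0, 2, 7 and 21 h. A second Mmp28 probe, without a value at 0.5 h, read 0.05, -0.44, -0.13 and 0.39 at these times.

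Among inhibitors, Timp3, which binds to matrix, was low, between -0.72 and -0.49 over the 0, 2, 7 and 21 h arrays; its 2 probes averaged -0.91 and -0.23. Timp2 read 0.05, -0.05, 0.01, -0.06 and -0.12 on the 0, 0.5, 2, 7 and 21 h arrays, and Timp1, an inhibitor induced in inflammation, 0.18, 0.93, 0.06, 0.01 and 0.06 at the same times. Timp1 was past 2-fold at 0.5 h alone.

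Adam9, a membrane-bound metalloproteinase and disintegrin present in myeloid cells, had the highest median of the matrix genes over the 0, 2, 7 and 21 h arrays. It read 0.37, 0.11, 0.57, 0.65 and 0.51 on the 0, 0.5, 2, 7 and 21 h arrays on 1 probe, 2-fold or more above embryo on all arrays but that of 0.5 h. Adamtsl5, a secreted relative of ADAMTS proteins without the protease part, averaged 0.30, -0.19, 0.59, 0.46 and 0.17 on the 0, 0.5, 2, 7 and 21 h arrays over 6 probes, whose SD at 2 h was 0.50. Its probes averaged from 0.03 to 0.69 over the 0, 2, 7 and 21 h arrays. Adamdec1, an ADAM-like protease known from macrophages and dendritic cells, was not above embryo by 2-fold on those 4 arrays (-0.29 to 0.08). Over the same arrays Adam5 lay between -0.13 and 0.01, Adamts9 between -0.02 and 0.05 and Adamtsl4 between 0.03 and 0.23. Adamtsl3 lay between -0.28 and 0.25 there, and Adamts3 between -0.28 (7 h) and 0.99 (21 h). At 0.5 h Adam5 read 1.51, Adamtsl3 1.74, Adamtsl4 0.43, Adamts3 0.22 and Adamts9 -0.11.

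Genes beside the members in the same pathway gave a mixed picture. Of 9 measured genes of collagen synthesis and processing, 1 was lower than embryo by 2-fold at 0 h: Serpinh1, the collagen chaperone HSP47, at -0.86. The highest was Bmp1, a procollagen protease, at 0.16. Of 17 other matrix proteins 7 were lower at 0 h and 0 higher, with the basement membrane linker Nid1 lowest at -1.33 and Ecm1, an extracellular matrix protein of skin, highest at 0.22. Among 9 receptors for matrix the collagen receptor Ddr2 was low (-0.83) and Mrc2, a collagen uptake receptor, high (0.52). Of the cathepsins measured, Ctsl was at 0.60 and Ctsb at -0.11 at 0 h.

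The comparison over time asked how the matrix genes stood after LPS beside the unexposed cells. The 4 differences share the 0 h array. At 2 h, 8 of 57 members were lower than at 0 h by 2-fold or more (14.0%), beside 2.58% of all genes, and 4 were higher, beside 4.24%. The lower ones were Fstl1 (-0.79), Col1a1 (-0.77), Col12a1 (-0.58), Lamb1 (-0.58), Col5a1 (-0.55), Lox (-0.53), Adamtsl3 (-0.40) and Bgn (-0.34). The higher ones were Adamts3 (0.48), which trims procollagen II, Lama1 (0.44), Adamdec1 (0.38) and Lamb2 (0.31). The median of members was -0.12, beside -0.01 for all genes.

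The 2 h array had a wider spread over all probes than the 0 h array, as given above. Scaled to one median absolute deviation, 5 of the 8 stayed past the size rule and Fstl1 was at -0.30, and after quantile normalization 4 stayed, with Fstl1 at -0.14 and Lox at -0.14. Col1a1 was at -0.49 and -0.44 under these settings, and at -0.49 with its second probe counted, which needs the 0.5 h array to be left out. With a loess trend removed 6 of the 8 stayed lower by 2-fold, with Fstl1 at -0.37. With a running median over probe numbers removed 7 stayed, with Fstl1 at -0.82.

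At 7 h, 4 members were lower (7.02%), beside 1.40% of all genes, and 3 were higher (5.26%), beside 3.35%. The lower ones were Col2a1 (-0.43), Col3a1 (-0.34), Lamb1 (-0.33) and Fbln7 (-0.33), and the higher ones Lama1 (0.82), Lox (0.66) and Lamb2 (0.32). The median difference of members was 0.04, beside 0.02 for all genes. Fstl1 (0.17), Postn (0.13) and Col1a1 (0.15) differed from 0 h by less than 2-fold on this array.

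At 21 h, 7 members were higher than at 0 h (12.3%), beside 4.33% of all genes, and 2 were lower (3.51%), beside 4.69%. The higher ones were Adamts3 (1.16), Col1a2 (0.68), Col16a1 (0.64), Col4a2 (0.46), Col9a2 (0.46), Loxl2 (0.37) and Col6a3 (0.33). The lower ones were Adamtsl3 (-0.46) and Lama1 (-0.37). The median of members was 0.0062 and that of all genes 0.0030.

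Every one of the 7 rested on probes numbered 1 to 2400, a range of numbers in which other genes were often higher too. Over all probes, 14.6% of those numbered 1 to 2400 were higher at 21 h by 2-fold, beside 4.74% of those above 2400. Among matrix probes these were 9 of 34 and 3 of 54. With a running median over probe numbers removed, 6 of the 7 were still higher by 2-fold, with Adamts3 at 1.10 and Col1a2 at 0.62, while Col6a3 was at 0.25. Of the 7, only Col1a2 and Col4a2 had a second probe, and it did not repeat the size. With both probes Col1a2 was at 0.42, and the probes of Col4a2 had an SD of 0.52 at 21 h beside 0.01 at 0 h. The remaining genes had 1 probe each and allowed no such comparison. The limit of 2400 was chosen after the values were seen.

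**Figure D4:**
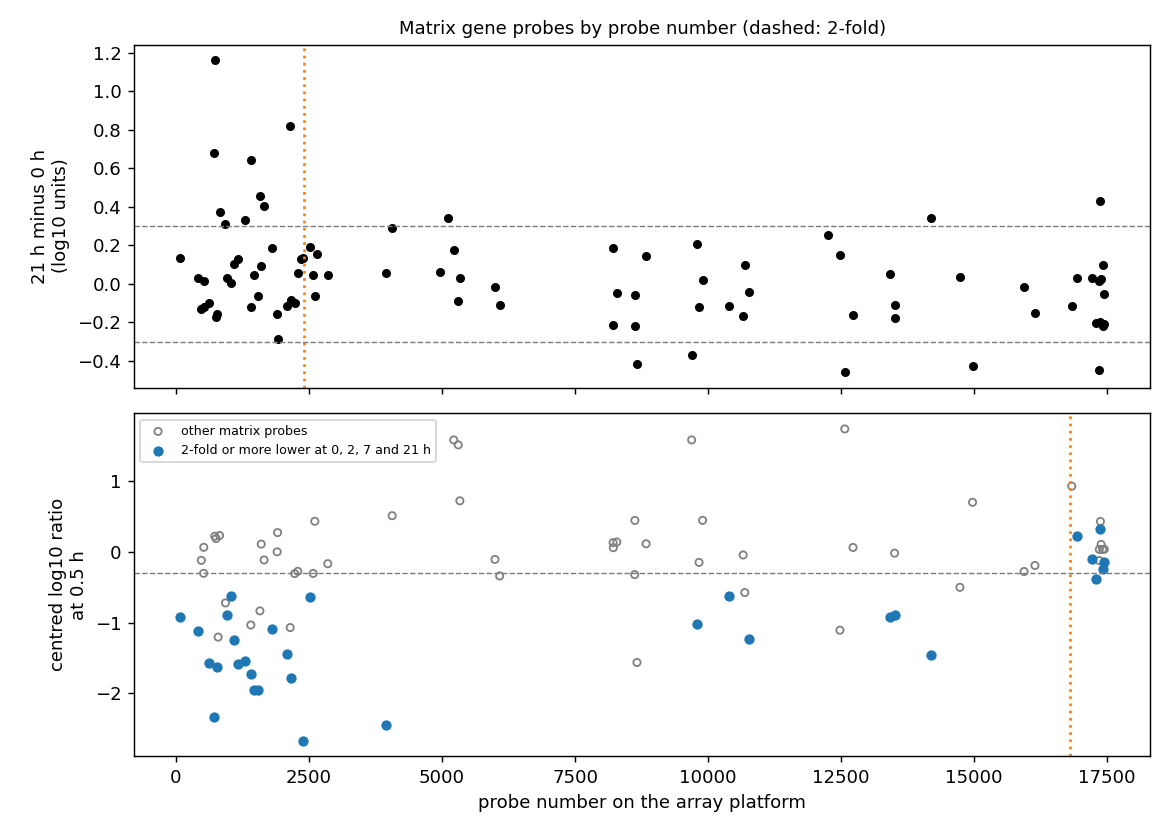
Matrix gene probes by probe number (horizontal axis): above, the difference of the 21 h from the 0 h array in log10 units; below, the centred log10 ratio at 0.5 h, with filled points for probes 2-fold or more below embryo on all of the 0, 2, 7 and 21 h arrays. Dashed lines mark 2-fold and dotted lines numbers 2400 and 16800. The largest upward differences at 21 h lie left of 2400, and filled points right of 16800 lie between -0.38 and 0.33, above all filled points to the left.

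At 0.5 h, 13 members were higher than at 0 h (22.8%), beside 19.9% of all genes, and 14 were lower (24.6%), beside 10.6%. The 5 largest in each direction were Fbln1 (1.59), Adamtsl3 (1.56), Adam5 (1.5), Lama1 (1.34) and Col2a1 (1.07), and Lamb2 (-0.84), Fstl1 (-0.83), Col12a1 (-0.75), Col5a1 (-0.67) and Col1a2 (-0.63). Scaled to one median absolute deviation, Fstl1 was at 0.46 and Col1a2 at 0.52, 2 of the 14 stayed lower by 2-fold, and 10 changed sign. With a loess trend removed, Adam5 was at 0.38 and Fbln1 at 0.42, while Col2a1 was at 1.30. Adamtsl3 (0.083) and Lama1 (-0.040) were then no longer past 2-fold. Over stretches of 400 probe numbers, the correlation of the 0.5 h array with the mean of the others had a median of 0.57. It was 0.21 to 0.30 in the stretches of the 5 higher genes and of Lamb2. For Fstl1, Col12a1, Col5a1 and Col1a2 it was 0.72 to 0.90. With a running median over probe numbers removed, Fbln1 was at 0.99, Adam5 at 0.91 and Mmp28 at 0.16 (0.74 before). Adamtsl3, Lama1 (1.36) and Col2a1 (1.12) changed little.

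The matrix probes that were low on the other arrays are given here on either side of number 16800. Of the matrix probes numbered 1 to 16800 that were low on all of the 0, 2, 7 and 21 h arrays, 25 had a value at 0.5 h and 25 were low there too. Of those numbered above 16800, 1 of 6 was low, with values from -0.38 to 0.33. They are probes of Col2a1, Col11a1, Lum, Lamb1, Sparc and Dcn. Over all probes the shares low at 0.5 h were 755 of 975 and 7 of 32. The limit of 16800 was chosen after the values were seen, so the split in part reflects that choice. The part of position was not tested.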

How the data were processed

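Per the labels' protocols, total RNA was extracted with a column kit, and an indirect amino-allyl label with Cy3 was put into the cDNA. The authors deposited 1 log ratio per probe and array, read here as log10; for scanner, background correction, normalization, base, centring and dye direction the entry is: not given in the sources used here; the deposited medians lay between 0.0013 and 0.07. Of 19828 probes, 14759 had 1 symbol in the platform annotation, 170 several and 4899 none here. Symbols were updated by Entrez identifier through RefSeq GRCm38.p6 (14628 matched).

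Probes with a value on all 5 arrays were averaged per gene, and each array was centred on its median gene. No test was possible with 1 array per time; counts use 2-fold (0.301). The number of arrays limits the precision. Members and lists were chosen with earlier results of these data known. Genes were named by rule: the marker and matricellular genes, the highest and lowest of each role, and those past 2-fold on 4 arrays. Also named were members past 2-fold against 0 h, at 0.5 h only the 5 largest each way. Members with at least 3 probes and the highest and lowest of each context list were named too. Other members are given by their range or by selected values. Exceptions picked after their values were seen are Fstl1, Postn and Col1a1 at 7 h, and Cd68, Tyrobp, Lyz2, Lcp1, Pdgfra and Pdgfrb among markers. Averaging of probes and centring were tested on simulated data with less noise than the real probes. The 2-fold counts, the differences from 0 h and the other processing settings were not. Python 3.11.15, numpy 2.4.6, pandas 2.3.3, statsmodels 0.14.6 and matplotlib 3.10.9 were used.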

Additional observations from a re-analysis of the deposited data

Results flagged for a closer look

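These genes differed from 0 h by 2-fold or more in opposite directions at different times, each on single arrays, so the difference between times was not tested. Lama1 stood at 1.34, 0.44 and 0.82 on the 0.5, 2 and 7 h arrays, and at -0.37 on that of 21 h. Lox stood at -0.60 at 0.5 h and -0.53 at 2 h, and at 0.66 at 7 h. In all other cases one of the times was 0.5 h. Adamtsl3 was at 1.56 there, and at -0.40 at 2 h and -0.46 at 21 h. Lamb2 was at -0.84, and at 0.31 at 2 h and 0.32 at 7 h. Bgn was at 0.39 and at -0.34 at 2 h. Col2a1 (1.07 and -0.43) and Fbln7 (0.42 and -0.33) differed between 0.5 and 7 h. Col16a1 (-0.32 and 0.64), Col1a2 (-0.63 and 0.68) and Col6a3 (-0.43 and 0.33) differed between 0.5 and 21 h. Each of these genes had 1 probe in the comparison. Several of the opposite directions depend on the scaling of the 0.5 h array. Scaled to one median absolute deviation, the 0.5 h values of Col1a2 (0.52), Col6a3 (0.33), Lox (0.34) and Col16a1 (0.18) were above 0, and Bgn (0.25) and Fbln7 (0.23) were within 2-fold. Lox at 2 h was then at -0.17. With a loess trend removed, Adamtsl3 was at 0.083 and Lama1 at -0.040 at 0.5 h.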

How the results depend on the processing

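No paired analysis was possible because each group held 1 array. Shares of all genes past the size rule were counted under the main setting only. The counts of matrix genes below therefore cannot be set beside the array as a whole. Under centring, normalization and probe choices in log base 10, the count of matrix genes lower than embryo stayed within 1.5 times of its value on every array. Centred on probes, 1 gene was higher than embryo at 0 h. Read as base 2, genes higher and lower than embryo numbered 0 and 10 at 0 h, 4 and 13 at 0.5 h, 0 and 13 at 2 h (median -0.14), 1 and 7 at 7 h and 0 and 10 at 21 h; against 0 h they numbered 5 and 0 at 0.5 h, 0 and 0 at 2 h, 0 and 0 at 7 h and 1 and 0 at 21 h. At 1.5-fold, 6 were higher than embryo at 0 h and 5 at 7 h; against 0 h, 19 were lower at 2 h, 6 higher and 8 lower at 7 h, and 11 higher and 7 lower at 21 h. At 3-fold, 0 were higher than embryo at 0 h and 2 at 21 h; against 0 h, 8 were lower at 0.5 h, 0 higher at 2 h, 0 lower at 7 h, and 3 higher and 0 lower at 21 h. After quantile normalization 5 were lower than at 0 h at 0.5 h and 4 at 2 h. Scaled to one median absolute deviation 22 were higher and 3 lower at 0.5 h, and 5 lower at 2 h. That scaling turned 10 genes at 0.5 h: Col12a1 (0.034), Col16a1 (0.18), Col1a1 (0.28), Col1a2 (0.52), Col5a1 (0.17), Col6a1 (0.43), Col6a3 (0.33), Fstl1 (0.46), Lox (0.34) and Postn (0.51). After a loess trend was taken out 4 were lower at 0.5 h, and Col6a1 (0.024), Postn (0.075) and Lama1 (-0.040) turned. From probes numbered above 2400, chosen after seeing the data, 5 were lower at 0.5 h, 3 lower at 2 h and 0 higher at 21 h, of 34 genes; the 0 follows from the limit, since all 7 genes higher at 21 h rested on probes up to 2400. Removing a running median over probe numbers, also chosen after seeing the data, left every count within 1.5 times. Apart from counts under fewer genes, other size rules or another base, the cause was not tested.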
